A study of Peromyscus californicus with 17 samples.

Results

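The transcription factors that build the lung during development and mark its cell types in the adult were examined across the lungs of monogamous California mice (Peromyscus californicus) that differed in bonding history. The set was fixed by gene symbol and holds 10 genes, Nkx2-1, Foxa1, Foxa2, Gata6, Sox2, Sox9, Etv5, Foxf1, Tbx4 and Tbx5, of the 27786 genes in the expression table, and all 10 were measured in all 17 animals. RNA sequencing of whole lung was done in male animals, with 1 library per animal. The bonded group (B1 to B6, n = 6) had been paired for 4 months, and the bond-disrupted group (BD1 to BD6, n = 6) had been paired for the same time and then taken from the mating cage, with lungs collected on Day 7 after the disruption. The virgin group (V2 to V6, n = 5) was of similar age and was housed in groups, with 3 animals to a cage per the labels, while the paper also mentions smaller groups, so the virgins differ from the other groups in housing as well as in mating. Animals that carry the same number belong to the same family, most of them siblings placed in different groups. The labels name no engineered allele and no drug.

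The lung begins as a bud of the foregut endoderm, and Nkx2-1 is the factor that sets the lung and thyroid fields apart from the rest of the gut tube. Foxa1 and Foxa2 are pioneer factors that open endodermal chromatin, Sox2 marks the proximal airway epithelium and Sox9 the distal tips, and Etv5 is switched on by fibroblast growth factor signalling from the surrounding mesenchyme. Gata6 acts in endoderm and in vessels. Foxf1 is a hedgehog-responsive factor of the lung mesenchyme and of its endothelium, and Tbx4 and Tbx5 are T-box factors of the lung mesenchyme. In the adult, Nkx2-1, Foxa1, Foxa2 and Etv5 are known for their roles in alveolar type 2 (AT2) cells, Sox2 for its role in airway cells, and Foxf1 for its role in capillaries. In whole lung, fewer cells of a type and less RNA per cell cannot be told apart.

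The table holds FPKM, in which the fragments of a gene are scaled to its length in kilobases and to a library of 1000000 fragments, but the kilobases in it are not those of the gene named in the row. In the column of the first animal, each gene's fragments had been divided by the length of the gene 1 row above it, and in each later column by the length of a gene 1 row further up. The length of the gene itself could be put back in every animal for 24270 of the 27786 genes, all 10 factors among them, and FPKM below is on that own-length scale unless it is called deposited. Among values under 2000 fragments, 81.8% came out within 0.005 of a whole fragment with the length of the shifted gene, the lengths having been solved to give whole fragments, against 1.07% with the gene's own length, where chance gives 1%. In units of 1000000 fragments the recovered depth was 14.98 to 32.9 per library, and 6302 to 7377 genes per animal were listed at 0. Over 12197 genes with a mean of at least 100 fragments, the median SD of log2(FPKM + 1) between animals was 1.40 as deposited and 0.182 with own lengths.

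For the lineage factors the shift was large. Foxa2 was deposited at 115.2 FPKM in B4, where its fragments had been divided by 423 bases, and at 1.69 FPKM in BD4, where they had been divided by 26917 bases. With its own length of 2093 bases, the same fragments gave 23.3 FPKM in B4 and 21.7 FPKM in BD4. Etv5 was deposited at 998 FPKM in BD6, behind a divisor of 107 bases, and had 25.1 FPKM there with its own length of 4257 bases. Nkx2-1 was deposited at 2021 FPKM in V5 and at 9.78 FPKM in B1, and had 47.2 and 37.8 FPKM in these animals with its own length of 4586 bases. Nkx2-1 lies 5 rows above Foxa1 in the table, so the genes shared 12 of their 17 divisors, each used for Nkx2-1 in one animal and for Foxa1 in another. The highest deposited value of a factor was 12.1 times its lowest for Foxf1 and 365 times for Etv5. Across the 17 animals, the log2 deposited value correlated with the log2 divisor at r from −0.947 (Sox2) to −0.997 (Gata6), given as a description of how the values were made. On the own-length scale the highest animal was between 1.46 times (Gata6) and 4.16 times (Sox2) the lowest.

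**Figure D1:**
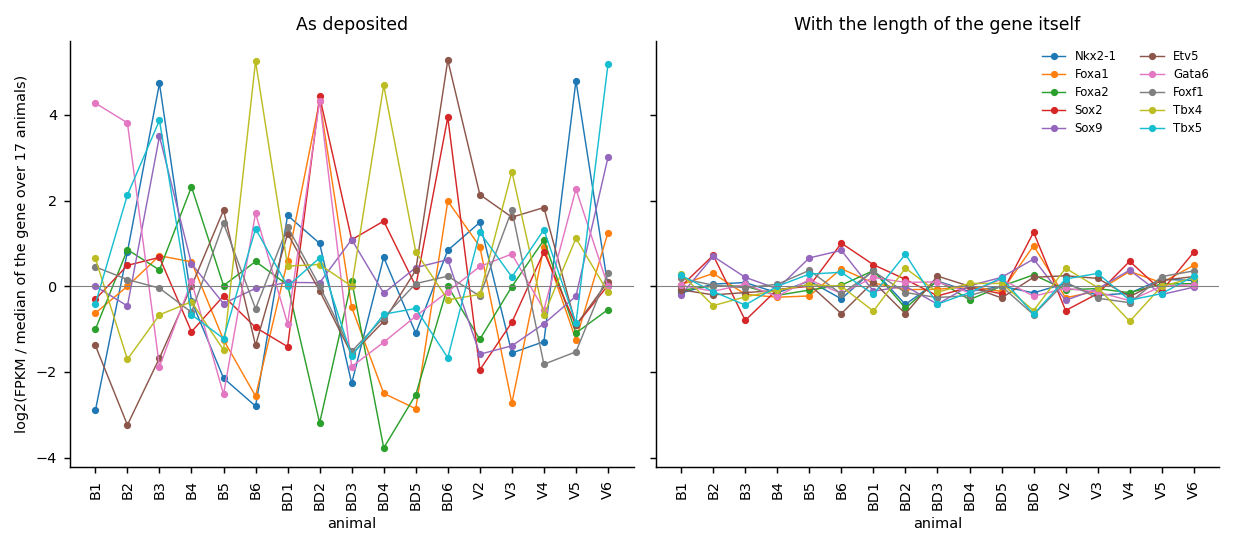
Log2 ratio of the FPKM of each of the 10 factors to its own median over the 17 animals, as deposited on the left and with the gene's own length on the right, on the same axis. Each line joins the values of 1 gene across animals (B bonded, BD bond-disrupted, V virgin). Deposited Etv5 ran from 2.73 to 998 FPKM, and with its own length from 13.9 to 25.7 FPKM.

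The tissue carried the markers of lung. Sftpc, the surfactant protein of AT2 cells, averaged 19872 FPKM, Ager of alveolar type 1 (AT1) cells 1642, Scgb1a1 of club cells 92786, Foxj1 of ciliated cells 29.8, Pecam1 of endothelium 203, Dcn of fibroblasts 750, Tagln of smooth muscle 302 and Marco of alveolar macrophages 99.9. Single markers of other tissues were also measured, each the highest of its list. Myl7 of atrial muscle, which in rodents also surrounds the pulmonary veins, averaged 88.1 FPKM (20.6 to 217.7 over animals), Cnmd of cartilage 6.32, Upk3b of mesothelium 13.6, Syp of neural tissue 20.8, Tg of thyroid 2.29 and Ttr of liver 1.16. Other markers of these lists were near 0, with a mean under 0.1 FPKM for 2 of 6 measured cartilage markers, 2 of 5 thyroid, 1 of 3 neural and 1 of 7 cardiac markers. Of 16 marker lists, 14 had at least 2 measured markers and were used, and the lists for basal airway cells and oesophagus were not.

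The mesenchymal and vascular factor Foxf1 had the highest level of the set, and the airway factor Sox2 the lowest. Over all 17 animals Foxf1 averaged 72.4 ± 13.9 FPKM (SD, n = 17), Nkx2-1 41.5 ± 5.76, Tbx4 37.7 ± 8.70, Gata6 26.7 ± 2.89 and Foxa2 26.6 ± 3.70. Etv5 followed at 21.2 ± 3.79 FPKM, Foxa1 at 17.1 ± 4.40 and Tbx5 at 16.3 ± 4.08, while Sox9 was at 2.88 ± 0.808 and Sox2 at 0.887 ± 0.364. Foxf1 exceeded Nkx2-1 in 17 of 17 animals, Tbx4 exceeded Gata6 in 16, Foxa2 exceeded Etv5 in 16, and Tbx5 exceeded Sox9 and Sox9 exceeded Sox2 in 17. The other neighbours in this order did not differ beyond the spread between animals: Nkx2-1 was above Tbx4 in 11 animals, Gata6 above Foxa2 in 7, Etv5 above Foxa1 in 12 and Foxa1 above Tbx5 in 10. Foxf1 was the highest of the set in all 17 animals with own lengths. As deposited it was the highest in 3 animals, and 7 different factors led in one animal or another, Nkx2-1 most often with 4.

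These levels rest on 2672 to 6994 fragments per animal for Nkx2-1 and 2752 to 6368 for Foxf1, and on 147 to 421 fragments for Sox9, where counting error alone reaches 8.25%. The level of Sox2 has a further limit. Its recovered length was 24912 bases, and the RefSeq gene of that symbol holds 21 transcripts, 1 coding and 20 non-coding, over a span of 621552 bases, so its fragments (267 to 998 per animal) need not come from the coding transcript and its FPKM is spread over a far longer model than those of the other factors. The Sox2 values can be compared between animals, but the place of Sox2 at the bottom of the order depends on that model. The strand setting of the count was not given in the sources used here, so fragments of an overlapping antisense gene would not be told apart for any member.

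Relative variation between animals was smallest for Gata6, with a coefficient of variation of 10.8%, followed by Nkx2-1 at 13.9% and Foxa2 at 13.9%, and largest for Sox2 at 41.1% and Sox9 at 28.1%. On the log2(FPKM + 1) scale the SD was 0.152 for Gata6 and 0.342 for Tbx4, and 30.6% and 79.4% of all tested genes had a smaller SD than these.

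Nkx2-1 was measured at closely similar levels in the 3 groups. It ranged from 34.3 (B6) to 45.9 (B5) FPKM in bonded animals, with a median of 40.7, and from 31.4 (BD2) to 54.7 (BD1) in bond-disrupted animals, with a median of 40.4. In the virgins it was 44.1, 36.3, 37.7, 47.2 and 46.2 FPKM in V2 to V6. The lowest and the highest animal of the study were both bond-disrupted, and the ranges of the other groups lay inside that range. The log2 fold change was 0.023 ± 0.12 (SE) for bond-disrupted against bonded, 0.055 ± 0.12 for virgin against bonded and 0.032 ± 0.12 for virgin against bond-disrupted (limma, adjusted p = 0.984, 1 and 0.987). Its 95% intervals reached at most 1.24-fold, so a 2-fold difference of Nkx2-1 between groups lay outside them.

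Foxa1 showed 1 animal well apart from its group. In bonded animals it ranged from 13.2 (B4) to 20.9 (B6) FPKM with a median of 14.99, and in bond-disrupted animals from 14.5 (BD5) to 30.3 (BD6) with a median of 15.4. The other 5 bond-disrupted animals lay between 14.5 and 16.6 FPKM, below BD6 without overlap. In V2 to V6 it was 13.1, 14.6, 20.02, 16.7 and 22.1 FPKM. The animal numbered 6 was the highest of its group in all 3 groups. Log2 fold changes were 0.11 ± 0.18 (SE) for bond-disrupted against bonded, 0.090 ± 0.19 for virgin against bonded and −0.017 ± 0.19 for virgin against bond-disrupted (limma, adjusted p = 0.946, 1 and 1.00).

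Foxa2, the partner of Foxa1 in endoderm, was spread more widely in bond-disrupted lungs than elsewhere, a difference in spread that was not tested. Its level was 23.3 (B4) to 27.5 (B6) FPKM in bonded animals, with a median of 26.2, and 18.9 (BD2) to 34.7 (BD1) in bond-disrupted animals, with a median of 28.3. V2 to V6 had 25.5, 25.96, 24.3, 28.0 and 28.1 FPKM. All bonded and all virgin values fell inside the bond-disrupted range. The log2 fold changes were 0.050 ± 0.12 (SE), 0.025 ± 0.12 and −0.025 ± 0.12 for bond-disrupted against bonded, virgin against bonded and virgin against bond-disrupted (limma, adjusted p = 0.966, 1 and 0.992).

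Sox2 followed Foxa1 closely in which animals were high. Bonded animals had 0.422 (B3) to 1.47 (B6) FPKM with a median of 0.734, bond-disrupted animals 0.628 (BD3) to 1.76 (BD6) with a median of 0.771, and V2 to V6 had 0.496, 0.651, 1.099, 0.681 and 1.27. B2 at 1.21 FPKM and B6 stood above the other bonded animals, as V4 and V6 did among virgins and BD6 among bond-disrupted animals. The log2 fold changes were 0.043 ± 0.15 (SE), −0.023 ± 0.16 and −0.066 ± 0.16 in the same order of comparisons (limma, adjusted p = 0.978, 1 and 0.972). At these levels the added 1 FPKM shrinks a fold change, and with a pseudocount of 0.1 the same differences were 0.092, −0.035 and −0.13.

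Sox9, the factor of the distal tip and of cartilage, had the largest difference of the set between bonded animals and the other groups, and it was not past the threshold. It ranged from 2.21 (B1) to 4.53 (B6) FPKM in bonded animals, with a median of 3.47, against 1.90 (BD3) to 3.94 (BD6) in bond-disrupted animals, with a median of 2.55. The virgins V2 to V6 had 2.02, 2.44, 3.29, 2.22 and 2.5003 FPKM. B2 (4.11), B5 (4.01) and B6 lay above every bond-disrupted and virgin animal, and the other 3 bonded animals lay among them. The log2 fold change was −0.23 ± 0.15 (SE) for bond-disrupted against bonded, −0.30 ± 0.16 for virgin against bonded and −0.074 ± 0.16 for virgin against bond-disrupted (limma, adjusted p = 0.862, 1 and 0.965). The added 1 FPKM shrinks these differences as well, and for bond-disrupted and virgin against bonded they were −0.29 and −0.39 with a pseudocount of 0.1 and −0.36 and −0.46 with voom on recovered fragments, with no call. The summed cartilage markers ranged from 6.01 to 12.9 FPKM in bonded, 4.25 to 20.4 in bond-disrupted and 8.30 to 16.5 in virgin animals, and their part in the Sox9 values was not tested.

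Etv5, the transcription factor downstream of fibroblast growth factor receptors, was lowest in bonded and highest in virgin lungs by its medians. Bonded animals had 13.9 (B6) to 22.3 (B5) FPKM with a median of 19.9, bond-disrupted animals 13.9 (BD2) to 25.5 (BD3) with a median of 22.5, and V2 to V6 had 25.7, 24.6, 18.3, 23.8 and 25.4. Of the 5 virgins, 4 lay above every bonded animal and V4 lay below all bonded animals except B6, so the groups overlapped. The log2 fold change was 0.28 ± 0.15 (SE) for virgin against bonded, with a 95% interval from −0.030 to 0.60, and was 0.12 ± 0.14 for bond-disrupted against bonded and 0.16 ± 0.15 for virgin against bond-disrupted (limma, adjusted p = 1, 0.913 and 0.940). Summed AT2 markers were also higher by median in bond-disrupted (26187 FPKM) than in bonded (22042) animals and were 22036 in virgins, and their part in the Etv5 values was not tested.

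Gata6 had the narrowest spread of the set. It ranged from 23.1 (B4) to 30.3 (B5) FPKM in bonded animals, with a median of 26.3, and from 23.2 (BD6) to 31.4 (BD1) in bond-disrupted animals, with a median of 29.1. V2 to V6 had 26.3, 24.8, 21.6, 27.2 and 27.9 FPKM. The 3 groups overlapped over most of their ranges. The log2 fold changes were 0.078 ± 0.091 (SE), −0.045 ± 0.095 and −0.12 ± 0.095 for bond-disrupted against bonded, virgin against bonded and virgin against bond-disrupted (limma, adjusted p = 0.913, 1 and 0.940), and the farthest bound of a 95% interval was 1.25-fold.

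Foxf1 was lower by median in bond-disrupted lungs. Bonded animals had 64.0 (B6) to 93.8 (B5) FPKM with a median of 74.4, and bond-disrupted animals 45.9 (BD6) to 92.5 (BD1) with a median of 64.0. V2 to V6 had 77.7, 59.9, 55.7, 84.9 and 93.02 FPKM. BD6 was the lowest animal of the study, while BD1 was among the highest, so the groups overlapped. The log2 fold change was −0.22 ± 0.16 (SE) for bond-disrupted against bonded, −0.063 ± 0.16 for virgin against bonded and 0.16 ± 0.16 for virgin against bond-disrupted (limma, adjusted p = 0.865, 1 and 0.940). For bond-disrupted against bonded it lay between −0.32 and −0.12 with any 1 animal left out. Summed endothelial markers were lowest in the same animal, at 688 FPKM in BD6 against 896 to 1128 in the other bond-disrupted animals. In bond-disrupted against bonded animals 6 of 6 smooth muscle markers had a negative log2 fold change (median −0.46). So did 9 of 9 ciliated (median −0.20), 6 of 6 cardiac muscle (median −0.17), 5 of 7 fibroblast (median −0.11) and 3 of 8 endothelial markers (median 0.023). Positive were 6 of 6 AT2 (median 0.26), 5 of 7 AT1 (median 0.16) and 3 of 4 leukocyte markers (median 0.11). In these lists 2 smooth muscle, 1 ciliated and 1 AT2 marker had an unadjusted p under 0.05 (limma), beside 5.98% of all tested genes. None of these genes was called, and the part of these cell types in the Foxf1 difference was not tested.

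The T-box factors varied more between animals than between groups. Tbx4 had 28.4 (B2) to 47.4 (B1) FPKM in bonded animals, with a median of 37.6, 25.97 (BD1) to 52.1 (BD2) in bond-disrupted animals, with a median of 38.0, and 52.0, 38.1, 22.04, 38.9 and 44.5 in V2 to V6. Its log2 fold changes were −0.042 ± 0.20 (SE), 0.032 ± 0.21 and 0.074 ± 0.21 in the same order of comparisons (limma, adjusted p = 0.983, 1 and 0.976). Tbx5, which also acts in atrial muscle, had 11.7 (B3) to 19.8 (B6) FPKM in bonded animals, with a median of 17.3, 10.1 (BD6) to 26.6 (BD2) in bond-disrupted animals, with a median of 14.1, and 17.8, 19.5, 12.6, 14.05 and 18.6 in V2 to V6. BD2 was the highest animal of the study for both genes, BD6 the lowest for Tbx5 and V4 the lowest for Tbx4. The log2 fold changes of Tbx5 were −0.12 ± 0.19 (SE), −0.0075 ± 0.20 and 0.11 ± 0.20 (limma, adjusted p = 0.946, 1 and 0.958).

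**Figure D2:**
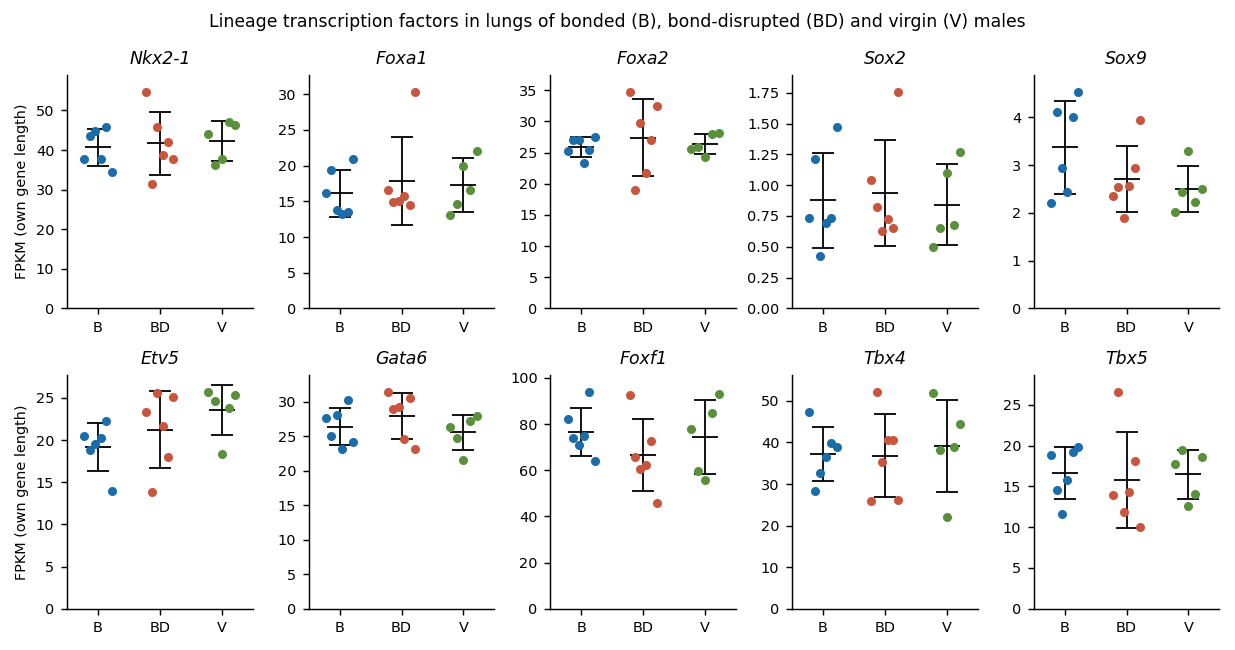
FPKM with own gene length of the 10 factors in each animal, with B for bonded (n = 6), BD for bond-disrupted (n = 6) and V for virgin (n = 5). Points are animals, the middle bar is the group mean and the outer bars are 1 SD. The groups overlap for every gene, and the high Foxa1 point at 30.3 FPKM and the high Sox2 point at 1.76 FPKM are both BD6.

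Bonding history was compared for each factor in 1 limma fit over 14487 genes, and a gene was called where it differed by at least 2-fold with an adjusted p under 0.1. None of the 10 factors was called in any of the 3 comparisons, and the share of all tested genes called was 0% in each as well. None of the 10 reached an unadjusted p under 0.05, against 866 genes (5.98%) in bond-disrupted against bonded, 522 (3.6%) in virgin against bonded and 629 (4.34%) in virgin against bond-disrupted. The median log2 fold change of the factors was 0.033, 0.0087 and 0.0072 in these comparisons, beside 0.0055, 0.0063 and 0.0046 over all genes. The factors were not apart by range either: in 0 of 10 did the groups fail to overlap, where 0.276%, 0.504% and 0.248% of all tested genes had groups that did not overlap. A p that misses the threshold does not show equal levels, and the 95% intervals give the size that was not excluded. On the log2(FPKM + 1) scale, which shrinks Sox2 and Sox9, the farthest bound was 1.46-fold lower for Foxf1 in bond-disrupted against bonded animals, 1.55-fold lower for Sox9 in virgin against bonded and 1.45-fold higher for Tbx5 in virgin against bond-disrupted. No interval of any factor reached 2-fold on that scale.

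**Figure D3:**
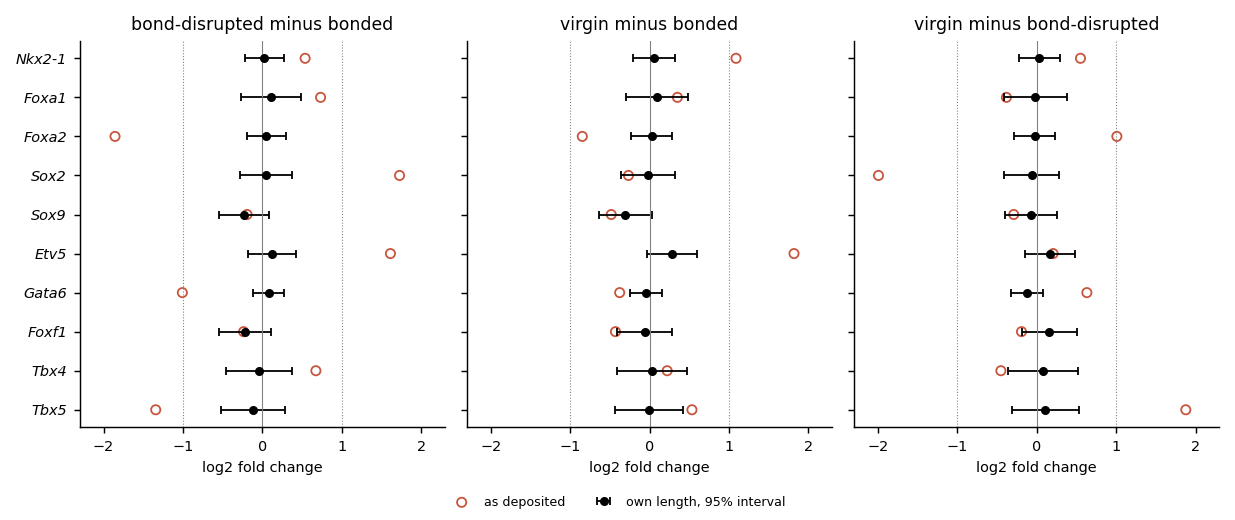
Log2 fold change of each factor in the 3 comparisons, as filled points with 95% intervals for own-length FPKM (limma over 14487 genes) and as open circles for FPKM as deposited. Dotted lines mark 2-fold. All intervals with own lengths include 0, and deposited Foxa2 lies at −1.86 in the first panel and deposited Sox2 at −1.99 in the third.

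On the deposited values the same comparisons gave larger numbers for the same fragments. In bond-disrupted against bonded animals 5 of the 10 factors differed by at least 2-fold, beside 19.1% of 18602 genes, and the largest log2 fold change was −1.86 for Foxa2. In virgin against bonded animals it was 2 factors beside 22% of genes, the largest being Etv5 at 1.82, and in virgin against bond-disrupted animals 3 factors beside 20.3%, the largest being Sox2 at −1.99. Foxa2 and Sox2 reached an unadjusted p under 0.05 in the first of these comparisons (limma, 6.82% of all genes), none of the 10 in the next (8.36%) and Sox2 in the last (6.76%). None of the 10 was called, where 0.215%, 0.607% and 0.188% of all genes were, and 0 of 10 had groups that did not overlap, beside 0.516%, 1.52% and 0.822% of all genes. With own lengths the log2 fold change was 0.050 for Foxa2 in bond-disrupted against bonded, 0.28 for Etv5 in virgin against bonded and −0.066 for Sox2 in virgin against bond-disrupted.

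Of the pairs of factors, 3 varied together within the groups. After subtracting group means on the log2(FPKM + 1) scale, 45 pairs were correlated across the 17 animals, with permutation p-values and Benjamini-Hochberg adjustment over the 45. The animals include relatives and are not fully independent, and the labels give no sequencing batch. Past an adjusted p of 0.05 were 3 of the 45, by Pearson's r and by Spearman's rho alike. Foxa1 and Sox2 had r = 0.929 (permutation p = 3e-05, adjusted p = 0.00135) and rho = 0.789 (permutation p = 0.00055, adjusted p = 0.0135). Without BD6 and B6, the animals farthest from the median of Foxa1, r was 0.883. Within the groups, r was 0.893 in bonded, 0.954 in bond-disrupted and 0.980 in virgin animals.

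Gata6 and Foxf1, both expressed in vessels, had r = 0.815 (permutation p = 8e-05, adjusted p = 0.0018) and rho = 0.797 (permutation p = 0.0006, adjusted p = 0.0135), and r was 0.694 without BD6 and V4. Without centring on group means r was 0.622, which is not past the threshold (permutation, adjusted p = 0.0695). Within groups r was 0.694 in bonded, 0.833 in bond-disrupted and 0.924 in virgin animals. BD6 and V4 were low and BD1, V6 and B5 were high for both genes. Tbx4 and Tbx5 had r = 0.740 (permutation p = 0.0009, adjusted p = 0.0135) and rho = 0.730 (permutation p = 0.00255, adjusted p = 0.0382), with r of 0.781 without V4 and BD1 and of 0.721, 0.823 and 0.746 in the 3 groups. With any 1 animal left out, Foxa1 with Sox2 and Gata6 with Foxf1 stayed past the threshold in all 17 repeats and Tbx4 with Tbx5 in 16 of 17, and the lowest r was 0.909, 0.754 and 0.673 in this order.

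**Figure D4:**
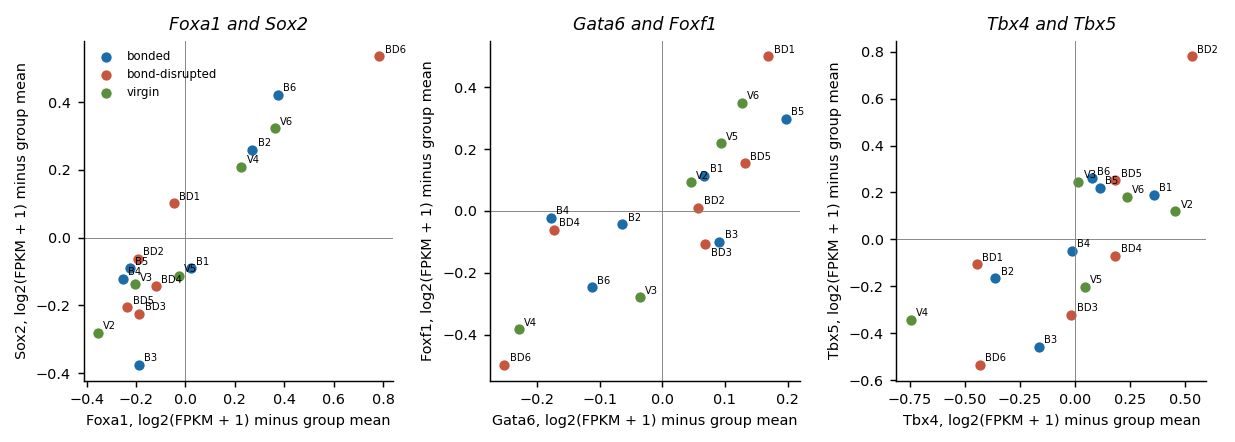
Deviations from the group mean on the log2(FPKM + 1) scale for the 3 pairs of factors past an adjusted permutation p of 0.05, with 1 point per animal coloured by group. Foxa1 and Sox2 are high together in BD6, B6, V6, B2 and V4, and Tbx4 and Tbx5 are highest in BD2.

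The remaining pairs were not past the threshold. Sox2 with Sox9 had r = 0.706 (permutation p = 0.00502, adjusted p = 0.0565), Foxa1 with Sox9 0.652, Nkx2-1 with Foxa2 0.658, Nkx2-1 with Foxf1 0.656 and Nkx2-1 with Etv5 0.622. Without BD2 and BD1, r of Nkx2-1 was 0.257 with Foxa2, 0.459 with Etv5 and 0.680 with Foxf1. The lowest value was −0.559 for Foxa2 with Tbx5, and −0.298 without BD2 and BD1. Nkx2-1 and Foxa1, which share divisors in the deposited table, had r = −0.146 with own lengths. Of the 45 pairs, 21 were positive, with a median r of −0.0992.

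Members were also set beside the levels of cell types, as the mean log2(FPKM + 1) of each of the 14 marker lists, in 140 pairs adjusted together. By Pearson's r, 5 pairs passed an adjusted p of 0.05, and by Spearman's rho 1 did, Tbx5 with leukocyte markers. Without BD2 0 of the 140 pairs passed by Pearson's r. Of the 5, r was then −0.811 for Tbx5 with leukocyte markers and 0.775 for Foxf1 with endothelial markers (permutation, adjusted p = 0.05005 for each), 0.726 for Sox2 with secretory airway markers (adjusted p = 0.0516 by permutation), −0.675 for Etv5 with ciliated markers (adjusted p = 0.0626 by permutation) and 0.699 for Tbx5 with thyroid markers (adjusted p = 0.0695 by permutation). With any 1 animal left out, these pairs passed in 16, 7, 6, 13 and 10 of 17 repeats, in the same order. Tbx5 was lower in animals with higher leukocyte markers, with r = −0.895 (permutation p = 6e-05, adjusted p = 0.0084), rho = −0.838 (permutation p = 0.00025, adjusted p = 0.035) and r = −0.787 without BD2 and BD6. All 4 measured leukocyte markers of 7 ran the same way, Marco of alveolar macrophages at r = −0.923 (16.1 to 196 FPKM over animals), Ptprc at −0.799, Cd68 at −0.773 and Cd79a of B cells at −0.708. The summed markers were lowest in BD2 (58.1 FPKM), where Tbx5 was highest, and highest in BD6 (356 FPKM), where Tbx5 was lowest. Within groups r was −0.872 in bonded, −0.975 in bond-disrupted and −0.592 in virgin animals.

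Tbx5 also followed the thyroid list at r = 0.814 (permutation p = 0.0007, adjusted p = 0.0327) and rho = 0.772 (permutation p = 0.00127, adjusted p = 0.0889). That list was nearly silent, with Tg at 1.34 to 3.79 FPKM and Tshr at 0.627 to 1.83, and the thyroid-defining Slc5a5 and Pax8 averaged 0.0047 and 0.050 FPKM. Against Tbx5, r was 0.587 for Tg and 0.672 for Tshr, and 0.035 for Pax8 and 0.057 for Slc5a5. Foxf1 followed the endothelial list at r = 0.754 (permutation p = 0.00113, adjusted p = 0.0396), rho = 0.699 (permutation p = 0.00462, adjusted p = 0.125) and r = 0.551 without BD6 and V4, and all 8 endothelial markers had a positive r, from 0.343 for Vwf to 0.654 for Kdr. Sox2 followed the secretory airway list at r = 0.726 (permutation p = 0.00151, adjusted p = 0.0423), with rho = 0.679 (permutation p = 0.00559, adjusted p = 0.125) and r = 0.768 without V2 and B1. Its 3 measured markers of 7 had r of 0.698 for Scgb1a1, 0.654 for Bpifb1 and 0.536 for Muc5b. With a pseudocount of 0.1 these 3 pairs missed the threshold, at r = 0.697 for Tbx5 with thyroid, 0.755 for Foxf1 with endothelial and 0.690 for Sox2 with secretory airway markers (permutation, adjusted p = 0.0878, 0.0523 and 0.0878).

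Etv5 was lower where ciliated airway markers were higher, at r = −0.698 (permutation p = 0.00049, adjusted p = 0.0327), rho = −0.593 (permutation p = 0.00887, adjusted p = 0.125) and r = −0.508 without B6 and V4. All 9 ciliated markers were negative against Etv5, from −0.573 for Foxj1 to −0.731 for Dnah9. Without centring on group means, r of Etv5 with the ciliated list was −0.567 and not past the threshold (permutation, adjusted p = 0.101). Not past the threshold were Etv5 with AT1 markers (r = 0.741) and with AT2 markers (r = 0.722), and Foxa1 with endothelial markers (r = −0.751). B6 and V4 were the animals with the lowest AT1 sum in their groups (2250 and 2599 FPKM), the highest ciliated sum (181.5 and 178.9 FPKM) and the lowest endothelial sum (815 and 832 FPKM). In the bond-disrupted group BD6 had the lowest AT1, endothelial, fibroblast and smooth muscle sums and the highest AT2 sum (32850 FPKM). Of these animals, B6 and V4 had the lowest Etv5 of their groups, and BD6 had the highest Foxa1 and Sox2 and the lowest Foxf1 of its group. Whether the makeup of the sampled tissue set the factor levels was not tested.

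**Figure D5:**
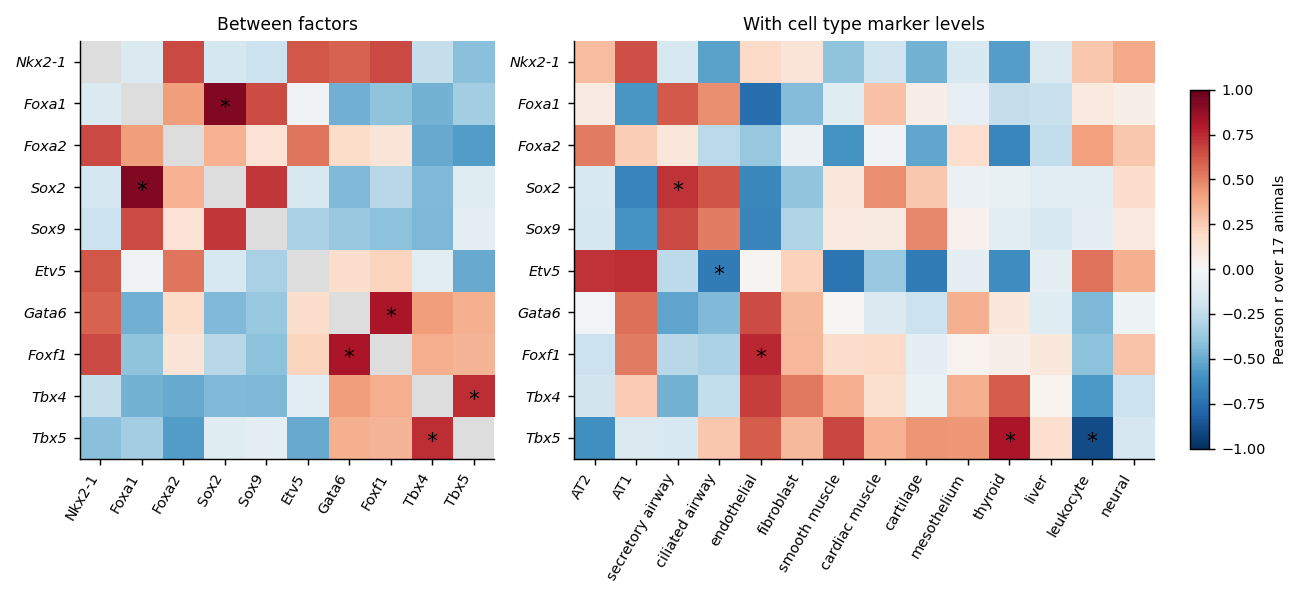
Pearson r across 17 animals, after subtracting group means, between the 10 factors (left) and between each factor and the mean level of each of 14 marker lists (right), on a scale from −1 (blue) to 1 (red). Stars mark an adjusted permutation p under 0.05, which 3 of 45 pairs of factors and 5 of 140 pairs with a marker list reached. Foxa1, Sox2 and Sox9 are positive with the airway lists and negative with the endothelial list.

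For each factor the most similar genes were sought among 12991 other genes with a mean of at least 1 FPKM, by r of deviations from group means over the 17 animals, as a description. Nkx2-1 was nearest to Hhex, a homeobox factor of endoderm and endothelium (r = 0.940), and to Sft2d1 (0.885). The gene nearest to Sox2 was Foxa1 itself (0.929), followed by CUNH2orf72 (0.901), while Foxa1 was nearest among the other genes to LOC128100691 (0.913) and LOC128120015 (0.869), both listed in RefSeq by a locus number. Sox2 averages under 1 FPKM and was not among the candidates for the other factors. Foxa2 was nearest to Agpat1, an acyltransferase of phospholipid synthesis (0.883), and to Xbp1, a factor of the unfolded protein response and of secretory cells (0.870). Etv5 was nearest to Rmdn2 (0.892) and to the fatty acid transporter Cd36 (0.881).

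Among the mesenchymal and vascular factors, Gata6 was nearest to Robo4, an endothelial receptor (0.897), and to Spry1, an inhibitor of receptor tyrosine kinase signalling (0.888). Foxf1 was nearest to Plekha3 (0.922) and to Pdgfb, the endothelial growth factor that recruits pericytes (0.913). Tbx4 was nearest to Dele1 (0.945) and Arhgef17 (0.943), and Tbx5 to Plat, the tissue plasminogen activator (0.940), and Tgfbr3, a co-receptor of transforming growth factor beta (0.936). Sox9 was nearest to Gli3, a transcription factor of hedgehog signalling (0.826), and to LOC128105431 (0.808). The number of genes above r = 0.8 was 2 for Sox9, 17 for Etv5, 89 for Foxf1, 117 for Tbx5 and 161 for Tbx4.

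The relatives of the factors and their pathways were described from lists of genes, and none of their genes was called in any comparison. The 3 comparisons share animals in pairs, so the counts of positive fold changes below are not independent of each other. Of 14 paralogs, 7 were tested. Tbx2, which lies next to Tbx4 in the gene order, averaged 120 FPKM, more than any of the 10 factors, and the endothelial Sox18 averaged 30.02. The median log2 fold change of the 7 paralogs was −0.15 in bond-disrupted against bonded animals, where 6 of 7 were negative, and −0.10 and 0.10 in the other comparisons. Tbx3, singled out after its values were seen, was the only paralog at an unadjusted p under 0.05, at −0.34 in bond-disrupted against bonded (limma, unadjusted p = 0.0104, adjusted p = 0.789). Tbx4 correlated with Tbx2 at r = 0.559 and Tbx5 with its neighbour Tbx3 at r = 0.495.

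Among other epithelial factors, 23 of 25 were tested, and Hopx of AT1 cells (766 FPKM) and Cebpa of AT2 cells (34.1 FPKM) were the highest. Positive were 11 of 23 in bond-disrupted against bonded (median −0.00014), 19 in virgin against bonded (median 0.072) and 18 in virgin against bond-disrupted animals (median 0.058), and 1 gene reached an unadjusted p under 0.05 in each comparison. By their values these were Klf5 at 0.22 in bond-disrupted against bonded and 0.25 in virgin against bonded, and Grhl2 at 0.23 in virgin against bond-disrupted (limma, unadjusted p = 0.0449, 0.0339 and 0.0415, adjusted p = 0.831, 1 and 0.940). Of 17 other mesenchymal factors 13 were tested, led by Tcf21 (169 FPKM) and Hoxa5 (27.4 FPKM), with 0 at an unadjusted p under 0.05 in each comparison and 4, 8 and 10 positive. Of the hedgehog genes, which act upstream of Foxf1, Hhip, the inhibitor that binds the ligand, had 35.9 FPKM and the co-receptor Boc 8.93. The ligand Shh had 4.93 FPKM and the effector Gli1 0.613, both named after their values were seen. Of 11 tested hedgehog genes, 5 were positive in bond-disrupted against bonded (median −0.052), 8 in virgin against bonded (median 0.028) and 9 in virgin against bond-disrupted animals (median 0.13). In the last, Gli2 at 0.25 reached an unadjusted p under 0.05 (limma, unadjusted p = 0.0112, adjusted p = 0.940), singled out by that value.

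Fibroblast growth factor genes, which act upstream of Etv5, were led by the receptors Fgfr2 (78.1 FPKM) and Fgfr1 (64.1 FPKM). Positive were 6 of 15 in bond-disrupted against bonded (median −0.026), 12 in virgin against bonded (median 0.057) and 12 in virgin against bond-disrupted animals (median 0.075), and Fgfr2 was at 0.36 in virgin against bonded (limma, unadjusted p = 0.0309, adjusted p = 1). The receptor Fgfr4, singled out after its values were seen, was at −0.55 in bond-disrupted against bonded and 0.61 in virgin against bond-disrupted (limma, unadjusted p = 0.0273 and 0.0212, adjusted p = 0.789 and 0.940). Of 20 tested WNT and BMP genes, led by Id3 (158 FPKM) and Ctnnb1 (147 FPKM), 2 reached an unadjusted p under 0.05 in bond-disrupted against bonded, 0 in virgin against bonded and 2 in virgin against bond-disrupted. By their values these were Ctnnb1 (0.14) and Rspo3 (0.39) in the first and Lef1 (0.54) and Wnt11 (0.40) in the last, while 9, 11 and 11 of the 20 were positive. The 8 vascular genes linked to Foxf1, led by Kdr (159 FPKM) and Tek (120 FPKM), had 0 in each comparison. Kdr, Tek and Tie1 of this list are also in the list of endothelial markers. Of these 8, 4 were positive in bond-disrupted against bonded (median −0.011), 8 in virgin against bonded (median 0.084) and 5 in virgin against bond-disrupted animals (median 0.13). Of 9 tested epithelial target genes of Nkx2-1, 8 were positive in bond-disrupted against bonded (median 0.17) and 8 in virgin against bonded (median 0.11). In virgin against bond-disrupted animals 3 were positive (median −0.014), and the first 2 of these comparisons share the bonded animals. Over all tested genes the medians were 0.0055, 0.0063 and 0.0046 in the same order. Every tested AT2 marker is among these 9 target genes, so the AT2 counts given with Foxf1 are not a separate observation. Among the target genes, Sftpb was singled out after its values were seen. In the first 2 comparisons it was at 0.43 (limma, unadjusted p = 0.00606, adjusted p = 0.789) and 0.39 (limma, unadjusted p = 0.0141, adjusted p = 1). There Scgb1a1 was at −0.047 and 0.20 and Sftpc at 0.17 and 0.053.

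The family number was tested as a term beside bonding history, since relatives were spread over the groups. By limma's F test 0 of 14487 genes passed an adjusted p under 0.1, and 815 had an unadjusted p under 0.05. Sox2 (unadjusted p = 0.0135, limma adjusted p = 0.871) and Foxa1 (unadjusted p = 0.0220, limma adjusted p = 0.871) were the only factors among these in the fit over all 3 groups. The animal with the number 6 was the highest of its group in 3 of 3 groups for these genes, in 2 for Foxa2 and Sox9, and in 0 for Nkx2-1, Tbx4 and Etv5. With only bonded and bond-disrupted animals, all of whose pairs are siblings, 25 of 14377 genes passed and 0 of the 10 factors did, the lowest limma adjusted p among them being 0.391. There 4 of the 10 factors had an unadjusted p under 0.05, beside 1368 genes, namely Sox2 (0.0119), Foxa1 (0.0244), Sox9 (0.0298) and Foxf1 (0.0307).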

How the data were processed

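RNA-seq libraries had been made by the authors from total RNA of 17 lungs with a directional kit. The submitters' processing notes name FastQC, Trim Galore 0.4.5, STAR 2.7.2, SAMtools 1.5 and featureCounts of Subread 1.5.3. Genome build, annotation and strand setting are not given in the sources used here. All 27786 gene names match RefSeq symbols of assembly ASM782708v3, which was used for names, biotypes, transcript numbers and the lengths of small RNAs. It also gave the span of Sox2 and the gene spans that limit the solved lengths, and no coordinates are given. The authors deposited FPKM, 1 column per animal, and 0 columns were left over. Groups come from the labels, and family numbers from the paper.

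The depth of each library was first set from small RNAs, taken at their RefSeq lengths. With these depths, each gene length was solved as the whole number that best turns deposited FPKM into whole fragments or parts of fragments. Lengths were limited to the RefSeq span of the gene, and an estimate from the other columns was weighed in. Of 27787 lengths, 26154 were settled. Of 345939 recovered values between 0 and 10000 fragments, 81.7% lay within 0.01 of a whole number. Another 16.9% lay within 0.01 of the midpoint between whole numbers. Of the small RNA lengths, 1505 of 1506 equal those of RefSeq. The depths rest on these RefSeq lengths, so that match was partly built in and is no independent check. The 24270 genes with a recovered value in each of the 17 animals were used. Depth, in units of 1000000 fragments, was 14.98 to 32.9 in bonded, 22.1 to 29.7 in bond-disrupted and 18.9 to 23.0 in virgin animals, and counting error covers sampling only. Of these, 14487 reached 1 FPKM with own lengths in some animal and were analysed on the log2(FPKM + 1) scale. Comparisons used limma 3.58.1 in R 4.3.3 (two-sided, no trend, 3 groups in 1 fit, Benjamini-Hochberg, adjusted p under 0.1 and 2-fold). The paper's methods name limma on FPKM and these thresholds, and the other settings were chosen here. Correlations used 100000 two-sided permutations within groups in Python 3.11.15 with numpy 2.4.6, whose smallest p is 1e-05. Recovery and tests were tested on simulated data. Nothing says that libraries were repeated, so p-values measure the spread between animals.

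The members, gene lists, marker lists and tests were chosen with earlier results of these data known. Named genes are the 10 members, the 2 highest genes of each pathway list, any called list gene, the 2 genes most alike to each member, the highest gene of each marker list and the members with the largest deposited fold change. Other genes are named for a low unadjusted p, or as a ligand, effector or marker, after their values were seen. The alternatives were FPKM as deposited, lengths estimated from the other columns by weighted medians, pseudocounts of 0.1 and 0.01, and no filter or one on the mean. Further ones were a trend, only the 2 groups compared, quantile or median-ratio normalization and the family block. The last were other thresholds, voom on recovered fragments and leaving out each animal.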

Additional observations from a re-analysis of the deposited data

Results flagged for a closer look

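Of 72 groups of animals examined (30 for the factors and the rest for summed markers), 6 had an animal far from the others of its group, where chance gives about 1 group in 20. Foxa1 was 30.3 FPKM in BD6, against 14.5 to 16.6 in the other bond-disrupted animals. Etv5 was 13.9 FPKM in B6, against 18.9 to 22.3 in the other bonded animals, and 18.3 FPKM in V4, against 23.8 to 25.7 in the other virgins. Summed ciliated airway markers were 120.3 FPKM in BD2, against 66.98 to 82.8 in the other bond-disrupted animals. Summed cartilage markers were 16.5 FPKM in V4, against 8.30 to 9.44 in the other virgins. Summed mesothelium markers were 3.98 FPKM in BD4, against 13.1 to 22.8 in the other bond-disrupted animals.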

How the results depend on the processing

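None of the 10 factors was called in any comparison under any alternative run. Over 837 member values with own lengths, log2 fold changes ranged from −0.456 to 0.367 and the lowest adjusted p was 0.587, the lowest fold change being that of Sox9 in virgin against bonded with voom. As deposited, 40, 113 and 35 genes were called in bond-disrupted against bonded, virgin against bonded and virgin against bond-disrupted, against 0 with own lengths, and the sign of a member's fold change turned for Foxa2 (−1.86), Gata6 (−1.01) and Tbx4 (0.67) in the first, Foxa2 (−0.85) and Tbx5 (0.53) in the next, and Foxa2 (1.01), Gata6 (0.63), Foxf1 (−0.19) and Tbx4 (−0.45) in the last, since another length then divides each value. Small fold changes also turned with lengths estimated from the other columns (Tbx5 0.12 in bond-disrupted against bonded, Gata6 0.012, Foxf1 0.050 and Tbx5 0.17 in virgin against bonded, Foxa1 0.011 in virgin against bond-disrupted), with quantile normalization (Nkx2-1 −0.011) and with voom (Nkx2-1 −0.012, Foxa2 −0.013), and the cause was not tested. Leaving out 1 animal turned 46 of 510 member values, in 18 of 30 fold changes, and the ranges were, for bond-disrupted against bonded (Nkx2-1 −0.057 to 0.10, Foxa1 −0.050 to 0.18, Foxa2 −0.022 to 0.15, Sox2 −0.064 to 0.13, Tbx4 −0.15 to 0.047), for virgin against bonded (Foxa1 −0.00049 to 0.18, Foxa2 −0.0044 to 0.053, Gata6 −0.080 to 0.013, Sox2 −0.10 to 0.061, Foxf1 −0.15 to 0.032, Tbx4 −0.081 to 0.22, Tbx5 −0.10 to 0.078), for virgin against bond-disrupted (Nkx2-1 −0.044 to 0.11, Foxa1 −0.11 to 0.14, Foxa2 −0.12 to 0.047, Sox2 −0.15 to 0.041, Sox9 −0.15 to 0.013, Tbx4 −0.039 to 0.26). Of the 12 that kept their sign, those that moved by over 1.5 times ranged, for bond-disrupted against bonded, from 0.042 to 0.13 (Gata6), −0.32 to −0.12 (Foxf1), −0.27 to −0.0096 (Tbx5) and 0.036 to 0.23 (Etv5), for virgin against bonded from 0.0087 to 0.11 (Nkx2-1), and for virgin against bond-disrupted from −0.17 to −0.065 (Gata6), 0.058 to 0.26 (Foxf1), 0.0020 to 0.27 (Tbx5) and 0.052 to 0.25 (Etv5). All genes called stayed at 0 without any 1 animal, except for 1 gene in virgin against bond-disrupted without BD6 (range 0 to 1).

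The correlations depended more on the setting. As deposited, 0 pairs of factors and 0 pairs with a marker list passed, and r was −0.024 for Gata6 with Foxf1, −0.089 for Tbx4 with Tbx5, −0.017 for Sox2 with secretory airway markers and 0.18 for Tbx5 with leukocyte markers. Pairs with a marker list numbered 2 with a pseudocount of 0.1 and 9 without centring on group means, where Etv5 with ciliated markers was lost (r = −0.567), and 0 to 8 when each animal was left out (0 without BD2, 1 without B6 or V2, 8 without B4). Pairs of factors numbered 2 to 5 when each animal was left out (5 without B1, B5 or BD2). Foxf1 was the highest factor in 3 animals as deposited. The family term called 25 genes with bonded and bond-disrupted animals only.

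With the family number as a replicate block, 0 genes and 0 factors were called in each comparison (lowest adjusted p over all genes 0.589, 0.188 and 0.165), and the fold changes of Tbx5 in virgin against bonded (0.00087) and Foxa2 in virgin against bond-disrupted (0.0077) turned sign. Same-numbered animals had deviations correlated above 0.1 in 7 of 16 pairs (−0.351 to 0.435). They did so in 5 of 6 bonded with bond-disrupted pairs and in 2 of 10 pairs with a virgin. These values were not tested, and likeness of expression does not show which animals are related. Depth limits Sox9 and Sox2 most. RefSeq exon lengths as an alternative for the order of levels were not run.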
